A study of Mus musculus with 9 samples.

Results

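The genes described here encode intermediate filament proteins of the developing cortex: the neurofilament subunits *Nefl*, *Nefm* and *Nefh*, the neuronal filament *Ina* (α-internexin), and the progenitor and glial filaments *Nes* (nestin) and *Vim* (vimentin). They are 6 of the 17487 genes listed in the deposited files and were taken by name, with no threshold on any value. The study asked how loss of the transcription factor TCF4 changes the cells that form the forebrain commissures. Neocortices were dissected from E18.5 (late embryonic) mouse littermates of a breeding between *Tcf4* haploinsufficient animals (strain label Tcf4ex4WT/lacZ), dissociated, and profiled by droplet single-cell RNA sequencing of 3′ transcript ends. The series holds 9 libraries from 1 animal each, of which 5 are labelled wild type (WT1 to WT5) and 4 knockout (KO1, KO2, KO4 and KO5). KO animals carry on both *Tcf4* alleles an inserted cassette (*lacZ* and neomycin resistance) upstream of exon 4, which removes the long protein isoform while a shorter isoform persists, in all cells of the body. WT2, WT3 and WT4 were compared with KO4 and KO5, the libraries of the study's own comparison, and the animal was the replicate (n = 3 and n = 2).

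Intermediate filaments are rope-like cytoskeletal polymers whose subunits differ between cell types. In the cortex, dividing radial glia build filaments of nestin and vimentin, and vimentin stays on in astrocytes. Neurons switch to α-internexin early and to the neurofilament light, medium and heavy chains as axons grow and mature, with the heavy chain the last to appear.

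In the annotation of the GRCm38 mouse genome, *Nefl* lies on chr14:68083863-68089095 (plus strand, 4 exons). *Nefm* lies beside it on chr14:68082590-68124846 on the minus strand, and the longer of its 2 coding models spans the whole of *Nefl*, so that reads in the shared stretch are told apart by strand only. *Nefh* lies on chr11:4938754-4948064 (minus strand, 4 exons), and *Ina* on chr19:47014698-47025327 (plus strand, 3 exons), where *Nt5c2* on the other strand overlaps its first bases. *Nes* lies on chr3:87971078-87980451 (plus strand, coding models of 4 and 5 exons) and *Vim* on chr2:13573927-13582826 (plus strand, coding models of 2, 8 and 9 exons).

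TCF4 binds E-boxes (CANNTG, which reads the same on both strands), so the 250 bases before the RefSeq transcription start (GRCm38.p6) are printed for *Ina*, *Nes* and *Vim*, the 3 of the 6 genes with an entry in the promoter table. They run 5′ to 3′ on the plus strand, and capitals mark E-boxes and the TATA-box word TATAAA, which was searched on both strands. The *Ina* stretch is chr19:47014431-47014680, the *Nes* stretch chr3:87970843-87971092 and the *Vim* stretch chr2:13574061-13574310. The *Vim* stretch lies within the gene span given above, in which the 9-exon coding model starts before the stretch, at chr2:13573952. Distances below are to the RefSeq start.
Ina: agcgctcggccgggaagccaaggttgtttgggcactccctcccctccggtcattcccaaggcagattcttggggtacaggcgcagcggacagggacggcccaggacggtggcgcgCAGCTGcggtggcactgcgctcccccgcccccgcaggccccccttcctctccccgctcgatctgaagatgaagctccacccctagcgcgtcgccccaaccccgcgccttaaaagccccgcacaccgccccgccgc
Nes: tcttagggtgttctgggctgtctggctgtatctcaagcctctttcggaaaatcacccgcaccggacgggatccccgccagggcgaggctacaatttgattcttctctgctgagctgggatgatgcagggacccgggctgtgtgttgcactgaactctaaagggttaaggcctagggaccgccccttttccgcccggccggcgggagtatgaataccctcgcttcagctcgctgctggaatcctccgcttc
Vim: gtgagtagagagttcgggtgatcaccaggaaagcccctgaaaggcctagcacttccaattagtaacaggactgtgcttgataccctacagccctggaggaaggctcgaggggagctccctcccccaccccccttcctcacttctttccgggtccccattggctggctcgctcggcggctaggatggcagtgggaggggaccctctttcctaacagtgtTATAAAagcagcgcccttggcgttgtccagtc
The *Ina* stretch held 1 E-box, CAGCTG, which began 135 bases before the start. The *Nes* and *Vim* stretches held none. The *Vim* stretch held TATAAA 32 bases before the start. Of all 32851 promoter stretches of this length, 66.2% held at least 1 E-box and 12.4% held TATAAA. These matches describe the letters only, and binding was not measured.

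Cells were sorted into classes by markers. A cell belonged to the class with most of its 8 markers detected after all cells were thinned to 1800 UMIs (unique molecular identifiers, 1 per captured transcript), with at least 2 markers and no tie. Progenitors numbered 181, 240 and 516 cells in WT2, WT3 and WT4, against 224 and 97 in KO4 and KO5. Glia numbered 116, 107 and 538 against 410 and 220, newborn neurons 74, 136 and 386 against 84 and 45, upper layer neurons 359, 578 and 1766 against 1686 and 970, and deep layer neurons 27, 20 and 255 against 176 and 91. All levels are UMIs per 10000 UMIs of a cell, averaged over the cells of a class in 1 library.

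The libraries differed in ways that touch the results. Deposited libraries held 348105 to 29767293 UMIs in 120 to 6208 cells. WT2 and WT3 were deposited as natural logarithms, and WT4, KO4 and KO5 as UMI counts, so deposit form moved in part with genotype. Its part in the genotype differences below was not tested. Kept cells had a median of 2478.5 to 4359 UMIs in WT2 to WT4 and 2217 to 2290 in KO4 and KO5, so depth moved with genotype. Cells with over 1% haemoglobin UMIs were left out, which removed 0.421% to 1.34% of cells in WT2 to WT4, 13.9% in KO4 and 40.4% in KO5. *Tcf4* itself stood at 12.2, 12.6 and 12.2 UMIs per 10000 over all kept cells of WT2, WT3 and WT4, against 9.29 and 7.59 in KO4 and KO5, where 3′ reads still count the shorter isoform. The library labelled WT5 (7.20) and that labelled WT1 (4.65) lay below both KO libraries and the one labelled KO1 (16.7) above every WT library. These libraries go against their labels, so WT5 is given beside the results. No 2 libraries shared more than 46 cell barcodes.

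The glia markers marked the cells less sharply in KO4, KO5 and WT5. The 8 glia markers summed to 143.6, 225.0 and 132.7 UMIs per 10000 in the glia of WT2, WT3 and WT4, against 47.7 and 41.5 in those of KO4 and KO5 (30.002 in WT5). In glia 6 of the 8 were called lower in KO and 0 higher. The same list summed in upper layer neurons to 4.81, 3.87 and 5.91 in WT and to 14.3 and 16.1 in KO (12.7 in WT5), and 3 of the 7 tested were called higher. *Hopx*, the glia marker left untested there, was at 0 in WT2. Other marker lists rose in upper layer neurons too. The cycling list summed there to 1.44, 0.728 and 0.871 in WT and to 2.45 and 3.07 in KO (2.298 in WT5), and 6 of 8 were called higher. Of the endothelial markers 2 of the 3 tested were called higher there, and of the deep layer markers 3 of 8. In the newborn and upper layer lists 1 marker each was called lower there and 0 higher. The 8 cycling markers in progenitors summed to 39.5, 33.4 and 35.4 in WT and 16.2 and 12.6 in KO. These shifts ran beside every genotype result below.

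**Figure D1:**
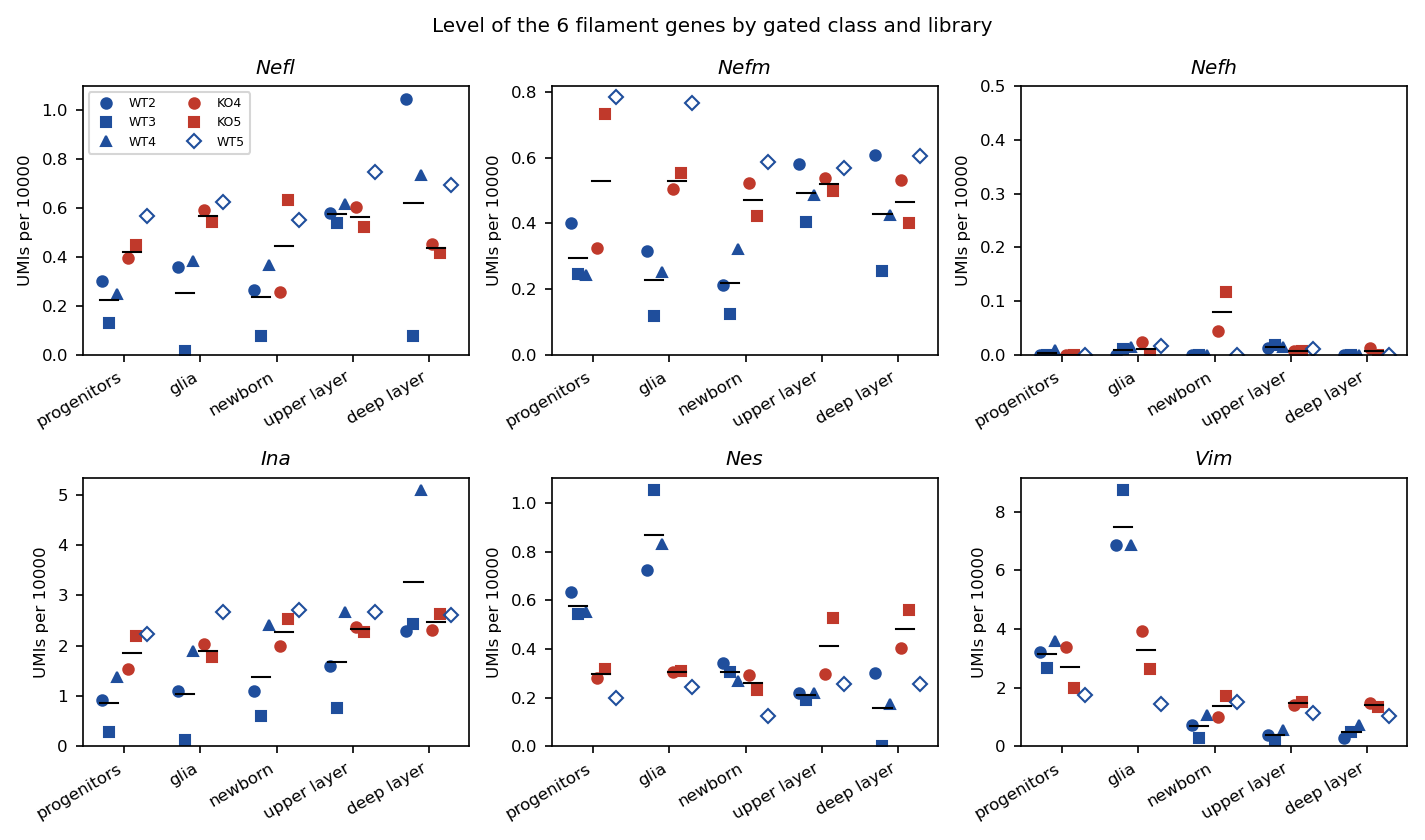
Level of each of the 6 filament genes (UMIs per 10000, y axes differ) in 5 cell classes, with 1 point per library and WT5 marked apart. *Vim* in the 3 WT libraries is highest in glia (6.86 to 8.75), next in progenitors (2.67 to 3.58) and at most 1.06 in the 3 neuron classes.

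*Vim* carried the clearest pattern among the classes. Over the 5 libraries it fell from progenitors to newborn neurons by 1.04 on the log2(level + 1) scale (SE 0.290, 95% interval −1.66 to −0.43, limma adjusted p = 0.0414), the only one of the 5 testable members called in that contrast, in which 6.33% of all genes were called. Within the glia of WT2, WT3 and WT4 it stood at 6.86, 8.75 and 6.86 UMIs per 10000, in progenitors at 3.23, 2.67 and 3.58, in newborn neurons at 0.727, 0.301 and 1.06, and in upper layer neurons at 0.375, 0.207 and 0.551. No WT library of one of these classes reached the next class above it except in newborn and upper layer neurons, whose ranges overlapped. The difference of glia from progenitors did not pass the test over the 5 libraries (log2 0.71, SE 0.290, adjusted p = 0.253), and 0 members were called there by limma, beside 4.65% of all genes, and 0 by edgeR, with *Vim* alone at an unadjusted p under 0.05. In the 3 WT libraries alone both contrasts were called, at −1.31 from progenitors to newborn neurons (adjusted p = 5.85e-07) and 1.03 from progenitors to glia (adjusted p = 1.34e-05). Over the 5 libraries the fall to newborn neurons lost its call without WT2 (adjusted p = 0.173), WT3 (0.130), WT4 (0.234) or KO4 (0.114), and under the strict gate (log2 −0.66, adjusted p = 0.382).

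Within WT progenitors, cells with cycling markers held more *Vim* than those with intermediate progenitor markers. Cycling cells stood at 4.05, 3.45 and 4.15 in WT2, WT3 and WT4, and intermediate progenitors at 1.93, 1.94 and 2.78. In KO4 the values were 3.42 against 3.34, and in KO5 1.75 against 2.34. These are descriptions, with 39 to 299 cells behind each value and no test. *Nes* was higher in cycling than in intermediate cells in all 5 libraries, with 0.647, 0.721 and 0.729 against 0.596, 0.386 and 0.292 in WT and 0.370 and 0.405 against 0.148 and 0.224 in KO.

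In KO glia *Vim* was lower. It stood at 6.86, 8.75 and 6.86 UMIs per 10000 in WT2, WT3 and WT4, against 3.92 and 2.65 in KO4 and KO5, with no overlap. The group means were 7.49 ± 1.09 (SD, n = 3) and 3.28 ± 0.901 (SD, n = 2), a ratio of WT to KO of 2.28. The log2 fold change was −0.996 (SE 0.171, 95% interval −1.36 to −0.63, adjusted p = 0.00475 by limma). It was 1 of 2 members called in glia, beside 5.24% of all genes. Without KO5 the adjusted p was 0.300 (log2 fold change −0.78), and with edgeR it was 0.0586.

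*Nes*, a marker of neural stem cells, moved the same way in glia. It stood at 0.725, 1.05 and 0.832 in WT2, WT3 and WT4, against 0.304 and 0.310 in KO4 and KO5. No library of one group reached the other. The means were 0.870 ± 0.167 (SD, n = 3) and 0.307 ± 0.00442 (SD, n = 2), a ratio of WT to KO of 2.83, and the log2 fold change was −0.51 (SE 0.109, 95% interval −0.75 to −0.28, adjusted p = 0.0167). Leaving out KO4 gave an adjusted p of 0.219, and leaving out KO5 one of 0.310.

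Among the remaining libraries KO did not lie below WT. For *Vim*, KO1 and KO2 lay below WT2, WT3 and WT4, but WT1 and WT5 were lower still. In glia WT5 stood at 1.44 for *Vim* and 0.242 for *Nes*, below both KO libraries, and WT1 at 2.18 and 0.460. KO1 stood at 4.47 for *Vim* and 1.01 for *Nes*, and KO2 at 5.12 and 0.365. Glia numbered 27 in WT1, 244 in WT5, 67 in KO1 and 35 in KO2. With libraries of the same number as a block (WT2 and KO2, WT4 and KO4, WT5 and KO5), the *Vim* log2 fold change in glia was −0.15 (adjusted p = 0.905) and that of *Nes* −0.25 (adjusted p = 0.754). With WT5 added to the WT group, they were −0.55 (adjusted p = 0.727) and −0.37 (adjusted p = 0.702), and 0 genes of all those tested were called.

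In KO upper layer neurons *Vim* was higher. It stood at 0.375, 0.207 and 0.551 UMIs per 10000 in WT2, WT3 and WT4, against 1.41 and 1.51 in KO4 and KO5, again with no overlap. The means were 0.377 ± 0.172 (SD, n = 3) and 1.46 ± 0.0753 (SD, n = 2), a ratio of KO to WT of 3.87. *Vim* had a log2 fold change of 0.84 (SE 0.101, 95% interval 0.62 to 1.07, adjusted p = 0.00173), and *Vim* was the only one of 5 members called there, beside 3.02% of all genes. The call held in each of the 5 fits that left out 1 library and with edgeR (log2 fold change 1.998, adjusted p = 0.00792) and DESeq2 (2.01, adjusted p = 3.70e-08), and was lost with no filter on low genes (adjusted p = 0.0568). WT5 stood at 1.12, above the other WT libraries compared and nearer to KO4 and KO5, and KO1 and KO2 at 0.799 and 2.05. With WT5 added the log2 fold change was 0.69 (adjusted p = 0.734), and with the replicate block it was 0.68 (adjusted p = 0.719).

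**Figure D2:**
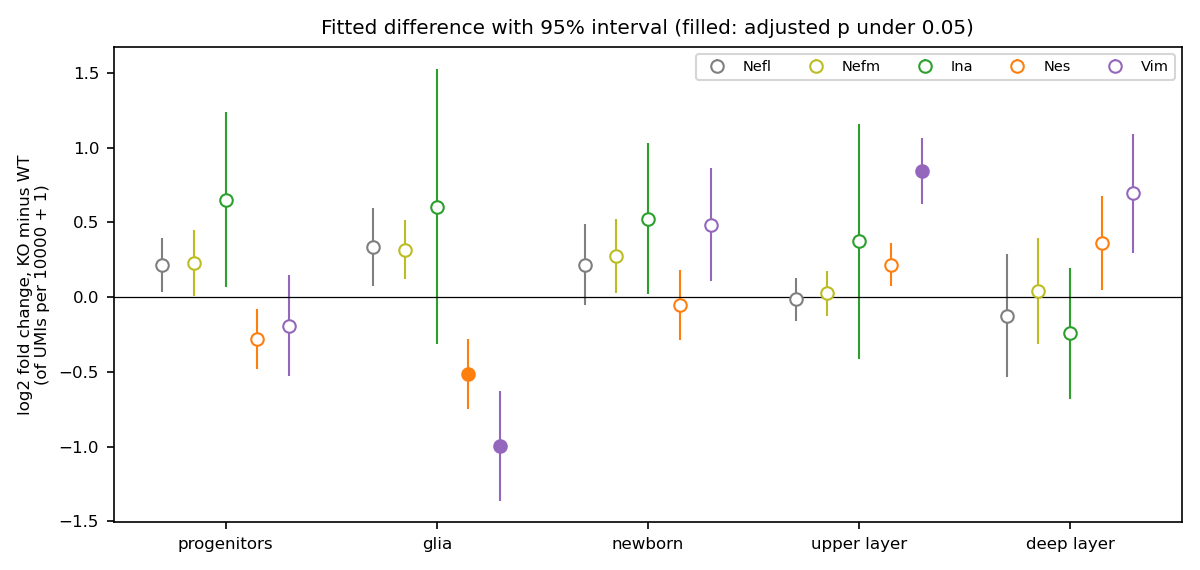
Log2 fold change of KO over WT (points) with 95% intervals (bars) for the 5 tested filament genes in 5 cell classes, limma on log2(level + 1). *Vim* lies below 0 in glia (−0.996) and above 0 in upper layer neurons (0.84).

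*Vim* thus differed in opposite directions in the 2 classes. The difference between its KO effects in glia and in upper layer neurons, tested after these values were seen, was −1.84 on the log2 scale (SE 0.197, 95% interval −2.28 to −1.40, adjusted p = 0.000376 by limma). That of *Nes* was −0.73 (SE 0.108, 95% interval −0.96 to −0.50, adjusted p = 0.00107). These were the 2 members called in that test, which called 9.35% of all genes. Without KO5 the adjusted p of *Nes* was 0.0703, and with no filter on low genes neither was called (adjusted p = 0.0812 for *Vim* and 0.116 for *Nes*). The test was not run with WT5 added, with all libraries or with the replicate block. Over all kept cells the groups overlapped. *Vim* stood at 1.87, 1.41 and 1.76 in WT2, WT3 and WT4, against 1.99 and 1.72 in KO4 and KO5 (2-sided exact permutation test, p = 0.6, where 0.1 is the smallest these numbers allow).

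*Nes* in upper layer neurons stood at 0.221, 0.191 and 0.217 in WT2, WT3 and WT4, against 0.296 and 0.528 in KO4 and KO5. The KO values lay above the WT values, and the 2 KO libraries were farther apart than the WT libraries. Its log2 fold change was 0.22 (SE 0.0655, 95% interval 0.07 to 0.36, adjusted p = 0.111 by limma), whereas edgeR gave 1.15 (adjusted p = 0.0375) and DESeq2 1.16 (adjusted p = 0.0164), so the call depended on the tool.

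The glia markers in upper layer neurons were followed cell by cell. Upper layer neurons with none of the 8 glia markers detected made up 44.6%, 52.4% and 40.8% of the class in WT2, WT3 and WT4, against 13.2% and 6.80% in KO4 and KO5. In these cells *Vim* stood at 0.312, 0.138 and 0.456 in WT and at 1.44 and 1.18 in KO (1.09 in WT5). In these cells the log2 fold change was 0.83 (SE 0.122, adjusted p = 0.00149 by limma), against 0.84 in the whole class. With 1 marker detected, *Vim* stood at 0.425, 0.272 and 0.588 against 1.30 and 1.43, and with 2 or 3 at 0.421, 0.365 and 0.796 against 1.78 and 1.85. The KO libraries lay above all WT libraries at each step. The cells with no glia marker numbered 160, 303 and 721 in WT2, WT3 and WT4, against 223 and 66 in KO4 and KO5. Markers were counted after thinning, so a cell with none detected can still hold glia transcripts. The cells were not split by the cycling or endothelial markers. The part of the marker shifts in the *Vim* difference of upper layer neurons was not tested beyond these values.

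**Figure D3:**
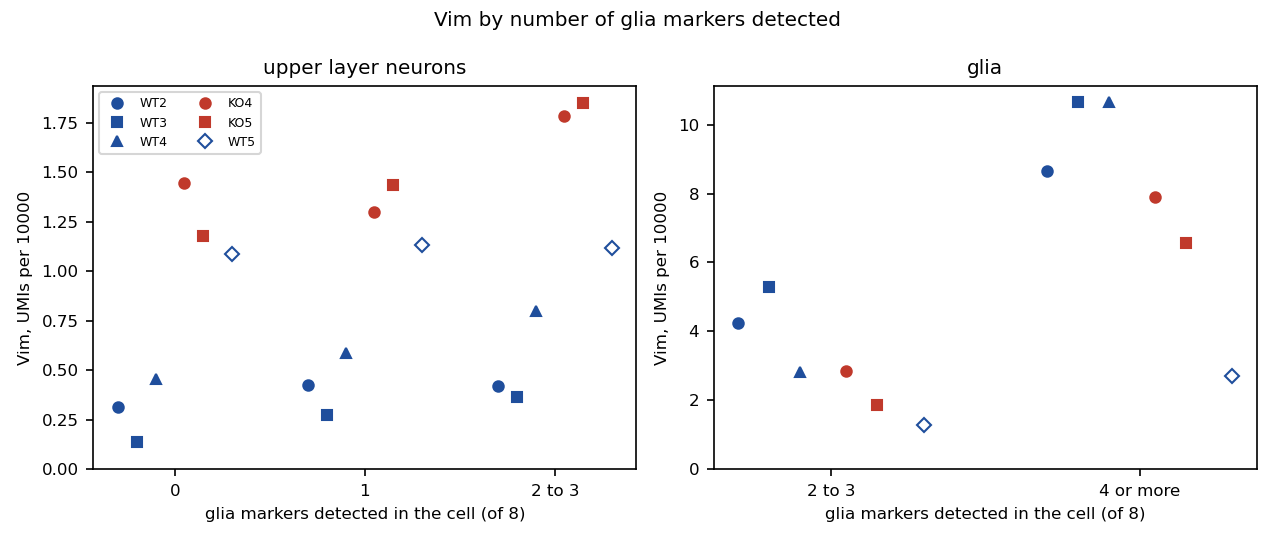
*Vim* level (UMIs per 10000) by library in upper layer neurons and in glia, split by how many of the 8 glia markers a cell showed after thinning. In upper layer neurons KO4 and KO5 lie above the 3 WT libraries also where no glia marker was detected (1.44 and 1.18 against 0.138 to 0.456). The cells were not split by the other marker lists.

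Glia were also split by the same count. Cells with only 2 or 3 glia markers made up 40.5%, 35.5% and 48.3% of the glia in WT2, WT3 and WT4, against 79.0% and 83.2% in KO4 and KO5 (88.5% in WT5). Their *Vim* level was 4.24, 5.29 and 2.81 in WT and 2.86 and 1.85 in KO, and these groups overlapped. In glia with 4 or more markers *Vim* stood at 8.65, 10.6 and 10.7 in WT and at 7.91 and 6.57 in KO. These KO values lay below all 3 WT values, but closer to them than in glia as a whole. *Nes* in glia with 4 or more markers stood at 0.743, 1.27 and 1.27 against 0.244 and 0.199. WT5 stood there at 2.71 for *Vim*, below both KO libraries, and at 0.654 for *Nes*, above both. The part of the glia markers in the *Vim* and *Nes* differences of the whole class was not tested beyond these values.

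Deep layer neurons held *Vim* at 0.281, 0.490 and 0.725 UMIs per 10000 in WT2, WT3 and WT4, against 1.47 and 1.35 in KO4 and KO5 (WT5 1.04). The KO libraries lay above the WT libraries, at 2.83 times their mean, and the log2 fold change of 0.70 (SE 0.199, 95% interval 0.30 to 1.09) did not pass the test (limma adjusted p = 0.134). The KO effect on *Vim* in deep layer neurons was not shown to differ from that in upper layer neurons (difference −0.15, SE 0.185, adjusted p = 1). *Nes* there stood at 0.302, 0 and 0.174 against 0.406 and 0.561 (adjusted p = 0.701). In deep layer neurons 0 of 5 members were called with limma, beside 0.465% of all genes, although *Vim* and *Nes* had unadjusted p-values under 0.05, as counted in the same fit, and edgeR called 1 member.

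In progenitors *Nes* stood at 0.634, 0.545 and 0.551 in WT2, WT3 and WT4, against 0.279 and 0.319 in KO4 and KO5, without overlap and at a ratio of WT to KO of 1.93. The log2 fold change was −0.28 (SE 0.0965, 95% interval −0.48 to −0.08, adjusted p = 0.0598 by limma), outside the threshold. WT5 stood at 0.197, and the sign turned with the replicate block (0.0431) and with all libraries (0.0443). *Vim* overlapped between the groups, with 3.23, 2.67 and 3.58 against 3.3998 and 1.99 (log2 fold change −0.19, SE 0.163, adjusted p = 0.473). No member of the 5 was called in progenitors, where 11.5% of all genes were, and edgeR called 0 as well, with *Ina*, *Nefl*, *Nefm* and *Nes* at an unadjusted limma p under 0.05. In newborn neurons limma and edgeR both called 0 of 5, beside 1.64% of all genes with limma, with *Ina*, *Nefm* and *Vim* at an unadjusted p under 0.05, and *Vim* had the largest shift among them after *Ina* (0.727, 0.301 and 1.06 against 0.993 and 1.73, log2 fold change 0.49, SE 0.185, adjusted p = 0.183).

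The neurofilament light chain *Nefl*, around which the other neurofilament subunits assemble, did not pass the test in any class. In upper layer neurons it stood at 0.579, 0.541 and 0.615 in WT2, WT3 and WT4, against 0.605 and 0.523 in KO4 and KO5. These groups overlapped, at 0.578 ± 0.0373 (SD, n = 3) and 0.564 ± 0.0579 (SD, n = 2), and the log2 fold change was −0.01 (SE 0.0654, 95% interval −0.16 to 0.13, adjusted p = 0.922 by limma). In deep layer neurons the values were 1.05, 0.0786 and 0.737 against 0.452 and 0.418, and WT3, with 20 cells, stood far from the other WT libraries.

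The medium chain *Nefm*, which carries a long side arm, was at 0.581, 0.405 and 0.487 in WT upper layer neurons and at 0.537 and 0.4998 in those of KO4 and KO5. The log2 fold change was 0.03 (SE 0.0680, 95% interval −0.12 to 0.18, adjusted p = 0.839 by limma). In deep layer neurons *Nefm* stood at 0.607, 0.256 and 0.425 against 0.530 and 0.401, again with overlap. From newborn to upper layer neurons *Nefl* differed by 0.27 (adjusted p = 0.634) and *Nefm* by 0.19 (adjusted p = 0.690) on the log2 scale, the only members at an unadjusted p under 0.05 there. No member was called by limma or edgeR in that contrast, beside 0.243% of all genes with limma.

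In glia, which are not known to build neurofilaments, light and medium chain UMIs did not pass the test. *Nefl* stood at 0.358, 0.0161 and 0.382 in WT2, WT3 and WT4, against 0.591 and 0.545 in KO4 and KO5 (log2 fold change 0.34, SE 0.121, adjusted p = 0.118 by limma). *Nefm* stood at 0.316, 0.119 and 0.252 against 0.506 and 0.554 (log2 fold change 0.32, SE 0.0917, adjusted p = 0.0625). The libraries did not overlap, and WT5 stood above both KO libraries, at 0.625 for *Nefl* and 0.767 for *Nefm*. The sign turned with the replicate block (−0.0832 for *Nefl* and −0.0809 for *Nefm*) and with all libraries (−0.0643 and −0.00317). Beside them the 8 upper layer markers summed to 7.44, 6.36 and 7.84 UMIs per 10000 in WT glia and to 12.4 and 10.97 in KO glia. The list did not rise as a whole. Of the 7 markers tested there, 3 were higher in KO, all of them called, and 1 was called lower. Their median log2 fold change was −0.0015. Microglia, which should lack both genes, had a *Nefl* UMI in 17.5% of 40 cells in KO4 (exact binomial 95% interval 7.34% to 32.8%) and in 1.85% of 54 cells in WT4 (0.0469% to 9.89%), at median depths of 2154.5 and 3380.5 UMIs. For *Nefm* these shares were 12.5% and 0%, and 0 of 54 cells has an upper limit of 6.60%. Endothelial cells of KO4 had a *Nefl* UMI in 4.94% of 81 cells. *Nefl* levels of endothelial cells overlapped between the groups, with means of 0.120 in WT2 to WT4 and 0.149 in KO4 and KO5. The *Nefl* share of upper layer neurons in KO4 was 9.85% after thinning, above that of its endothelial cells and within the interval of its microglia.

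The heavy chain *Nefh* was close to the limit of detection. It was listed in 8 of the 9 files and gave 4, 9 and 37 UMIs over all kept cells of WT2, WT3 and WT4, against 14 and 7 over those of KO4 and KO5. Its levels there were 0.0118, 0.0111 and 0.0115 against 0.0111 and 0.0109 UMIs per 10000. It passed the filter on low values in none of the 5 classes and was not tested. In KO newborn neurons it rested on 1 UMI in each library, and in upper layer neurons on 1, 5 and 14 UMIs in WT and 4 and 2 in KO.

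*Ina*, the first neuronal filament to appear, followed the form in which a library was deposited. Over all kept cells it stood at 1.57, 1.31, 0.683, 1.48 and 0.988 UMIs per 10000 in the libraries deposited as natural logarithms (WT1, WT2, WT3, KO1 and KO2) and at 2.73, 2.66, 2.25 and 2.29 in those deposited as UMI counts (WT4, WT5, KO4 and KO5). These sets did not overlap, whatever the genotype. In upper layer neurons *Ina* stood at 1.61, 0.766 and 2.68 in WT2, WT3 and WT4, against 2.38 and 2.27 in KO4 and KO5 (log2 fold change 0.37, SE 0.309, 95% interval −0.41 to 1.16, adjusted p = 0.514 by limma). Among the count libraries alone the order turned, with 2.68 and 2.67 in WT4 and WT5 against 2.38 and 2.27 in KO4 and KO5. The part of the deposit form in the *Ina* levels of the other classes was not tested.

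In deep layer neurons *Ina* stood at 2.29, 2.43 and 5.10 in WT2, WT3 and WT4, against 2.32 and 2.62 in KO4 and KO5. WT4 alone was high, and the other 4 libraries lay close together. The log2 fold change was −0.24 (SE 0.217, 95% interval −0.68 to 0.20, adjusted p = 0.909 by limma) and 0.05 without WT4. In WT4 *Ina* was high in both deep layer types, at 5.19 in cells with more layer 5 markers and 4.80 in those with more layer 6 markers. Over the 5 libraries deep exceeded upper layer neurons by 0.43 (SE 0.140, adjusted p = 0.452), and 0 members were called in that contrast by limma, beside 0.168% of all genes, and 0 by edgeR, with *Ina* alone at an unadjusted p under 0.05. The KO effect on *Ina* in deep less that in upper layer neurons was −0.61 (SE 0.179, adjusted p = 0.421). That limma test called 0 members beside 0.13% of all genes, with *Ina* alone at an unadjusted p under 0.05.

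*Ina* in progenitors stood at 0.927, 0.289 and 1.38 in WT2, WT3 and WT4, against 1.54 and 2.19 in KO4 and KO5 (log2 fold change 0.65, SE 0.250, adjusted p = 0.142 by limma). In glia the *Ina* values were 1.10, 0.136 and 1.89 against 2.04 and 1.77, with overlap. Microglia had an *Ina* UMI in 20.4% of 54 cells in WT4 and 30% of 40 cells in KO4, and upper layer neurons in 36.7% and 34.2% at median depths of 4847 and 2281 UMIs before thinning.

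Taken by their libraries alone, KO4 and KO5 both lay above WT2 to WT4 in 10 of the 30 combinations of 6 genes and 5 classes and below them in 4, and overlapped them in 16. In progenitors *Nefl* and *Ina* lay above and *Nes* below, where 14.8% of all tested genes lay above and 30.1% below. In glia *Nefl* and *Nefm* lay above and *Nes* and *Vim* below, beside 12.9% and 31.6% of all genes. In newborn neurons *Nefm* and *Nefh* lay above, beside 11.2% above and 23.9% below over all genes. Among upper layer neurons *Nes* and *Vim* lay above and *Nefh* below, beside 11.3% and 33.6%, and in deep layer neurons *Nes* and *Vim* lay above, beside 7.78% and 15.6%. *Nefh* did not pass the filter on low values in these classes, so the genes behind these percentages do not include it.

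Shares of cells with a UMI were taken after thinning. A *Vim* UMI was found in 59.5%, 65.4% and 52.2% of glia in WT2, WT3 and WT4, against 37.6% and 31.4% in KO4 and KO5. Unthinned, these shares were 69.0%, 83.2% and 67.3% against 45.9% and 37.3%. For upper layer neurons the thinned shares were 7.52%, 4.15% and 9.57% against 22.2% and 22.8%, and the unthinned shares 10.3%, 7.96% and 21.7% against 28.4% and 29.3%. Both KO upper layer shares were close to the *Vim* share of microglia of KO4 (22.5% of 40 cells), which is given for scale, since microglia are known to express some *Vim*. A *Nes* UMI was found in 12.9%, 14.95% and 13.2% of WT glia and in 5.12% and 5% of KO glia. With 3 against 2 libraries no share can go below an exact permutation p of 0.1, and the smallest adjusted p over the 30 shares was 0.30. KO lay above WT in 11 of the 30 thinned shares and below in 3, but above in 6 and below in 8 of the unthinned ones. Over all genes this was counted for levels only, so these counts have no background and are a description. Intervals on shares cover counting error only.

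The medium chain was detected more often in upper layer neurons that also showed the light chain. Among cells with a *Nefl* UMI, 25.9%, 23.7% and 23.2% also had a *Nefm* UMI in WT2, WT3 and WT4, against 8.43%, 4.07% and 6.33% of cells without. In KO4 and KO5 the shares were 15.1% and 12.3% against 8.09% and 8.77%, and in WT5 11.6% against 8.79%. The 3 WT libraries lay above KO4, KO5 and WT5. These shares rest on 27, 38 and 155 *Nefl*-positive cells in WT2 to WT4 and on 166 and 81 in KO4 and KO5, and the difference between the groups was not tested.

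**Figure D4:**
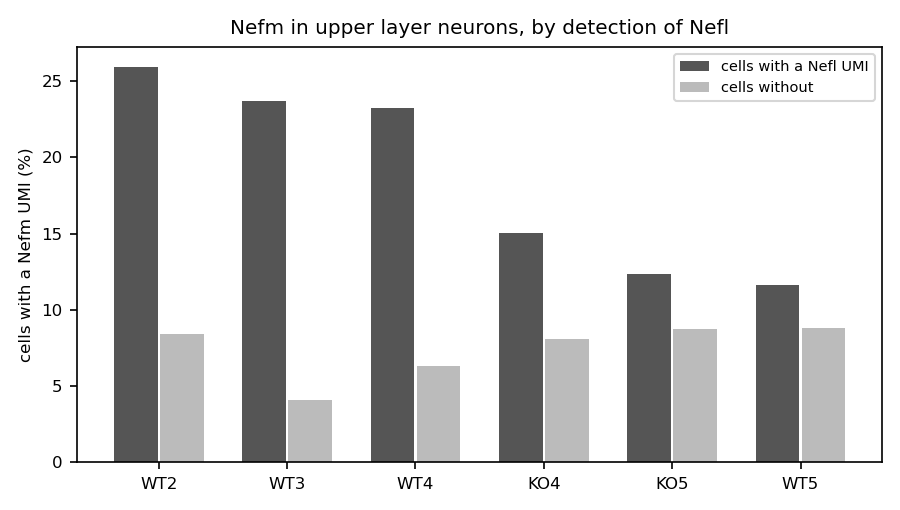
Share of upper layer neurons with a *Nefm* UMI (%), among cells with (dark bars) and without (light bars) a *Nefl* UMI, per library after thinning to 1800 UMIs. The dark bars reach 23.2% to 25.9% in WT2 to WT4 and 11.6% to 15.1% in KO4, KO5 and WT5.

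The share of glia with a *Vim* UMI was taken in the same way by detection of *Nes*. Among *Nes*-positive glia 73.3%, 68.8% and 73.2% had a *Vim* UMI in WT2, WT3 and WT4, against 57.4%, 64.8% and 49.0% of *Nes*-negative glia. In KO4 and KO5 the shares were 47.6% against 37.0% and 36.4% against 31.1%, with 21 and 11 *Nes*-positive cells behind them. *Nes*-positive cells had the higher share in these 5 libraries, but not in WT5 (11.1% against 17.4%) or KO1 (44.4% against 44.8%), each with 9 *Nes*-positive cells.

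Other filament genes and their partners were taken from a list of 18 (other filaments such as *Gfap*, *Des* and the lamins, linkers such as *Plec* and *Dst*, and genes of filament turnover and transport), of which 17 were listed in the files. In progenitors 1 of 9 tested was called, a share near the 11.5% of all genes called there. It was *Trim2*, a ubiquitin ligase that targets the neurofilament light chain. It stood at 3.06, 3.72 and 2.84 in WT2, WT3 and WT4, against 1.90 and 1.41 in KO4 and KO5 (log2 fold change −0.67, SE 0.147, adjusted p = 0.00454 by limma, 0.154 without KO5 and 0.0553 with edgeR). In newborn and upper layer neurons *Trim2* was not called, but KO lay below WT without overlap. The means were 4.13 in WT and 2.45 in KO newborn neurons, and 2.84 and 1.82 in upper layer neurons. Of all genes tested in these classes 23.9% and 33.6% lay below in the same way. In glia and deep layer neurons *Trim2* overlapped between the groups. Of the list 1 of 11 was called in glia, beside 5.24% of all genes. It was *Gfap*, the astrocyte filament, which gave 4, 8 and 54 UMIs in WT and 1 and 0 in KO. Its log2 fold change on the log2(level + 1) scale was −0.22 (SE 0.0528, adjusted p = 0.0314 by limma), and the adjusted p was 0.268 without KO4 and 0.465 without KO5. With the replicate block neither gene was called (adjusted p = 0.650 for *Trim2* and 0.803 for *Gfap*). None of 10 in newborn neurons, 10 in upper layer neurons and 11 in deep layer neurons was called by limma, with 1, 2 and 0 of them at an unadjusted p under 0.05, and edgeR called 0 of them too. The median log2 fold change of the list ran from −0.06 in upper layer neurons to 0.06 in glia, and that of all tested genes from −0.05 to −0.03.

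The genes whose levels ran most like those of the members were ranked by Pearson's r over 42 class means of the 5 libraries, among 3077 genes. The means share libraries and marker gates, so the r values are a description. *Vim* ran close to *Rgcc* (r = 0.867) and *Mfge8* (0.856), which is itself a glia marker of the gate, and *Nes* ran closest to *Id3* (0.867), *Gnai2* (0.859) and *Sparcl1* (0.845). *Ina* ran closest to *Evl* (0.861), *Rac3* (0.859) and *Thra* (0.830), *Nefl* to *Camk2b* (0.762), *Prkacb* (0.729) and *Grin2b* (0.711), and *Nefm* to *Cmip* (0.730), *Mpped1* (0.724) and *Sbk1* (0.711). *Nefh*, at its few UMIs, reached 0.672 with *Ube2e2*, 0.638 with *Gm561* and 0.629 with *2410015M20Rik*. Among the members r was 0.806 for *Nes* and *Vim*, 0.655 for *Nefl* and *Nefm*, and −0.557 for *Ina* and *Nes*.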

How the data were processed

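Per the labels and the study's methods, the authors aligned 10x Chromium 3′ v2 reads to mm10 with Cell Ranger (2.1.0 in the submitters' processing notes), filtered cells and used Seurat 2.3.4 in R 3.6.0. They deposited WT4, WT5, KO4 and KO5 as UMI counts and WT1, WT2, WT3, KO1 and KO2 as natural log values of UMIs per 10000 plus 1. The latter were brought back to UMIs, taking the smallest value of a cell as 1 UMI, and 100% of values came out whole. Cells with 1000 to 5000 genes, 1800 to 10000 UMIs, under 6% mitochondrial and at most 1% haemoglobin UMIs were kept (WT2 1184, WT3 1617, WT4 6173, KO4 4199 and KO5 2303 cells). No doublet caller was run. An alternative left out the 5% of cells with most UMIs.

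Class means per library were tested with limma 3.58.1 (trend, robust) on log2(mean + 1), for genes at 0.1 or more in at least 2 libraries, with Benjamini-Hochberg adjustment over all genes tested and calls below 0.05. This scale understates changes of low genes, so ratios of means are given too. Nothing but the library tells animals apart, so p-values measure the spread between libraries. Class contrasts and interactions had library as a block. Alternatives used edgeR 4.0.16, DESeq2 1.42.0, other gates, depths, cells and libraries. The scripts were tested on simulated data. The interaction of glia and upper layer neurons and the fits in cells with no glia marker were added after the data were seen.

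Libraries with the same replicate number ran more alike in upper layer neurons. Deviations from the group means correlated at 0.384 (number 2), 0.391 (4) and 0.257 (5) over 1476 genes. Other pairs stood at −0.369 to 0.0707. Such deviations cancel within a group, so high values in some pairs lower the others. WT2 and KO2 were also the only natural log deposits among these libraries, and KO2 had 14 upper layer cells. No label says what a number shares.

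The 6 genes, the markers and the list of related genes were chosen with earlier results of these data known. Named were the 6 genes, the related genes called in a genotype comparison, the 3 genes with the highest r to each member, and *Tcf4*. One gene that this rule names is not reported here. Gene models are GENCODE vM21, and promoter sequences are from RefSeq (GRCm38.p6).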

Additional observations from a re-analysis of the deposited data

Results flagged for a closer look

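The KO effects on *Vim* and *Nes* differed between glia and upper layer neurons, by −1.84 for *Vim* and −0.73 for *Nes* on the log2 scale in an interaction fit. This fit was added after the values were seen, and it called 9.35% of all genes. With no filter on low genes neither gene was called, and *Nes* was not called without KO5.

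Among 45 groups of 4 or more libraries, 4 held a library far from the rest, where chance alone singles out about 1 in 20. *Ina* in deep layer neurons stood at 5.10 UMIs per 10000 in WT4 and at 2.29 to 2.61 in the other WT libraries. *Nes* in glia stood at 1.01 in KO1 and at 0.304 to 0.365 in the other KO libraries. KO1 is the library whose *Tcf4* level (16.7) lay above every WT library, against its label, and its *Nes* value lay within the range of WT2 to WT4. *Nefh* in progenitors stood at 0.00812 in WT4 and at 0 in the other WT libraries, and in glia at 0.0234 in KO4 and at 0 in the other KO libraries. Before thinning a *Nefh* UMI was found in 0.388% of these WT4 progenitors and 0.488% of these KO4 glia. Where all other libraries are at 0 any UMI sets a library apart, so the *Nefh* values cannot be set against that chance rate.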

How the results depend on the processing

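Over 402 alternatives of 21 fold changes, 331 kept direction and side of the threshold, 32 lost the call, 14 gained one and 25 reversed. Adding WT5, using all libraries or the replicate block removed every member's call between genotypes, and the cause was not tested. The block was run for the 5 comparisons of genotypes, where it also removed the calls of *Trim2* and *Gfap* and changed no other call given in the text. Shares of cells without overlap between groups were 11 with KO above and 3 below, 6 and 8 in unthinned cells, and 9 and 2 under the strict gate. Shares were not counted in this way over all genes. Depth limits *Nefh* and the thinned shares.

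Members called in glia (2) became 1 with edgeR (TMM or RLE), DESeq2, the strict gate or cells under 4000 UMIs, and 0 with no filter, WT5 added, all libraries or the replicate block, and were 0 to 2 without 1 library. In upper layer neurons (1) they became 2 with edgeR (TMM or RLE) or DESeq2 and 0 with no filter, WT5 added, all libraries or the replicate block, and were 1 to 2 without 1 library. In progenitors (0) they became 2 with the gate on unthinned cells and 1 with 3 markers, no haemoglobin limit or without the top 5% of cells (0 to 1 without 1 library). In newborn neurons (0) they became 1 with the unthinned gate (0 to 1 without 1 library), and in deep layer neurons (0) 1 with edgeR (TMM or RLE) or 3 markers, where WT4 was the only WT library left and is assumed to vary like the KO libraries. From progenitors to newborn neurons (1) they became 0 with the strict gate, under 4000 UMIs, no haemoglobin limit or without the top 5% (0 to 1 without 1 library). With WT libraries only, glia against progenitors and deep against upper layers each had 1 in place of 0. The deep and upper layer interaction (0) had 0 to 1 without 1 library, and that of glia and upper layers (2) had 0 with no filter and 1 to 4 without 1 library.

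Reversed log2 fold changes were, with all libraries, *Nefl* −0.0643 and *Nefm* −0.00317 in glia, *Nes* 0.0443 and *Vim* 0.12 in progenitors, and *Nefm* −0.15 and *Ina* −0.0966 in upper layer neurons. With the block they were *Nefl* −0.0832 and *Nefm* −0.0809 in glia, *Nes* 0.0431, *Vim* 0.18 and *Ina* −0.0900 in progenitors, and *Nefm* −0.23 and *Ina* −0.22 in upper layer neurons. *Nefl* in upper layer neurons was 0.11 with 3 markers, 0.0136 with thinned levels, 0.23 under 4000 UMIs and 0.0265 without the top 5%. *Nefm* there was −0.0127 under the strict gate, *Vim* in progenitors 0.0302 under 4000 UMIs and *Ina* in progenitors −0.63 with no glia marker, where KO4 with 18 cells was the only KO library left. Without 1 library, values ran from −0.47 (without KO4) to 0.0877 (without KO5) for *Vim* in progenitors, from −0.0515 to 0.0242 for *Nefl* and −0.0144 to 0.0705 for *Nefm* in upper layer neurons, and from −0.40 to 0.0452 (without WT4) for *Ina* in deep layer neurons.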

Other observations

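Outside the 5 classes, *Vim* was also high in cells with endothelial markers, at 6.72, 5.86 and 6.84 UMIs per 10000 in WT2, WT3 and WT4 and at 4.37 and 2.32 in KO4 and KO5 (2.92 in WT5), with 13 to 81 cells in the 5 compared libraries. *Nes* in these cells stood at 1.75, 1.20 and 1.16 against 0.714 and 0.509. In both genes the KO libraries lay below the WT libraries (2-sided exact permutation p = 0.1 for each, the smallest these numbers allow). The share of all genes that did so was not counted in endothelial cells, and was 15.6% to 33.6% in the 5 classes. In inhibitory neurons *Vim* stood at 1.07, 1.67 and 1.60 against 1.74 and 1.42, where the groups overlapped. In Cajal-Retzius cells *Ina* stood at 2.11, 1.80 and 5.99 in WT2, WT3 and WT4 and at 4.63 in KO4.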
